A study of Mus musculus with 12 samples.

Results

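Mitosis and spindle genes drive the separation of duplicated chromosomes and the division of the cell. The set described here held 47 genes chosen by name for these roles, and the rule used no measured value. A gene was read on the probe sets that carry its symbol alone, and its probe set with the highest mean over the 12 arrays stood for it. By that rule 46 of the 47 genes had a value, among 18193 genes with such a probe set in the whole series. Ccnb1, a cyclin of the main mitotic kinase, had no probe set under its symbol alone and is not described. All 46 genes lay above the array median on each of the 12 arrays, and all 46 were among the 11908 genes tested.

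The arrays held RNA of unfractionated, uncultured marrow flushed from the tibia and femur of mice, in 12 samples with 1 array each. There were 3 wild-type C57Bl/6 mice, 3 nullizygous for Fancc (Fancc-/-), 3 nullizygous for Fancg (Fancg-/-) and 3 nullizygous for both genes (the double knockout). Their products belong to the core complex of the Fanconi anemia pathway, a ubiquitin ligase used to repair DNA interstrand crosslinks. The labels give no treatment, and age and sex are not given in the sources used here. RNA was not pooled, and each marrow sample gave 1 RNA sample, taken here as 1 mouse. A strain is stated for the wild-type mice only. The comparisons ask whether mitotic transcripts of whole marrow differ between wild-type mice and mice without Fancc, without Fancg or without both. In such bulk RNA fewer dividing cells and less RNA per dividing cell cannot be told apart.

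A cell enters mitosis when Cdk1, bound to its cyclins, is switched on by Cdc25 phosphatases, and Plk1 and the Aurora kinases then shape the spindle and condense the chromosomes. Kinetochores attach the chromosomes to the spindle, and the checkpoint proteins hold back anaphase until all are attached. The ligase activated by Cdc20 then marks securin and the cyclins for destruction, sister chromatids part, and cytokinesis splits the cell. In marrow the dividing cells are mainly erythroblasts, granulocyte precursors and early B-lineage cells, and the transcripts of these genes peak in G2 and M phase. Many promoters of such genes carry a short element called CHR and CCAAT boxes, through which repressor and activator complexes act.

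RefSeq promoter windows of 300 bases (GRCm38.p6, 250 bases before to 50 after the start) were at hand for 38 of the 47 genes, 41 windows in all. The CHR letters TTTGAA or TTCGAA, on either strand, were in 30 of the 38 genes (78.9%), in 80.5% of their windows and in 19.2% of all 32851 windows. The letters CCAAT, on either strand, were in 29 of the 38 genes (76.3%), in 78% of their windows and in 37.4% of all windows. Windows with both made up 73.2% of the set's windows and 7.52% of all windows. There was 1 CHR match that shared bases with a CCAAT match. A match is a description of the letters and shows no binding. The promoters printed here belong to genes described below: Ccnb2 (chr9:70421505-70421804, minus strand), Ttk (chr9:83834439-83834738, plus strand), Plk1 (chr7:122159185-122159484, plus strand) and Nuf2 (chr1:169531415-169531714, minus strand). Each is written 5′ to 3′ on the strand of the gene, and capitals mark CHR and CCAAT letters on either strand. Ccnb2 held 2 CHR and 3 CCAAT matches, Ttk 1 and 2, Plk1 1 and 1, and Nuf2 0 and 0.
Ccnb2: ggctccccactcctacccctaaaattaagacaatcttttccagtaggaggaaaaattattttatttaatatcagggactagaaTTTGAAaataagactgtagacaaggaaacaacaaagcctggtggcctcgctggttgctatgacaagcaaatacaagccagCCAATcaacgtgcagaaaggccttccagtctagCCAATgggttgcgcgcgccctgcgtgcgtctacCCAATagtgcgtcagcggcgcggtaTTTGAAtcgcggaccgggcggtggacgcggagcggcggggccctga
Ttk: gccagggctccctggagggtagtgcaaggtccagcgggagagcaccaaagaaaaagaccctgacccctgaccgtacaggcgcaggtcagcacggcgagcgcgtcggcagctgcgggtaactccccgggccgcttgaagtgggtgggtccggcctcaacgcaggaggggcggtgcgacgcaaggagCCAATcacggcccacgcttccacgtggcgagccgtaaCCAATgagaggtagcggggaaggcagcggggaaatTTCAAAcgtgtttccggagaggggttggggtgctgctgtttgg
Plk1: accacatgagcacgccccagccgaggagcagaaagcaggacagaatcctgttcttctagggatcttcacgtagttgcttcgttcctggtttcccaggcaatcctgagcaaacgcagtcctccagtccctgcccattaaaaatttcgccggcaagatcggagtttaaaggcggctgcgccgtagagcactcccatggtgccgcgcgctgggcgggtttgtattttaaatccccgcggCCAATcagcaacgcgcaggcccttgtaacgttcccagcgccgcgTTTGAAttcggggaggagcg
Nuf2: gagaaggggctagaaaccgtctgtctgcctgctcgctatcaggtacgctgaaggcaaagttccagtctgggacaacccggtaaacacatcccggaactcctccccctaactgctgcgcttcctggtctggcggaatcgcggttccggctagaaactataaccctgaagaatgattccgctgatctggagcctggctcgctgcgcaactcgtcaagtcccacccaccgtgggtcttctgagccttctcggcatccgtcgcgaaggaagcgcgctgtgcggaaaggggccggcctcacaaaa

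The values are log2 signals, so a difference of 1 is a 2-fold difference. Array medians ran from 4.79 to 4.87, and correlations between arrays of a group over the tested genes from 0.954 to 0.993. Fancg was read as a check of the labels. Its signal was 6.80 to 6.86 on wild-type arrays and 6.43 to 6.72 on Fancc-/- arrays. Double-knockout arrays had 5.61 to 5.83, but the arrays labelled Fancg-/- had 6.55, 6.00 and 6.64. Fancc was at 5.90 to 6.18 in wild type and 5.96 to 6.17 in Fancc-/-. The places of these probe sets relative to the deleted parts are not known. Xist, made from the silenced X chromosome of females, was at 11.19 to 12.23 in wild type and Fancc-/- and 5.99 to 7.39 in the double knockout, where the Y-linked Eif2s3y was at 8.81 to 9.35. The arrays labelled Fancg-/- replicates 1 and 3 had both marks (Xist 11.31 and 10.75, Eif2s3y 7.64 and 5.78), and replicate 2 had those of a male (7.34 and 9.09). Eif2s3y was at 2.89 to 3.30 in wild type and Fancc-/-. Whether the arrays labelled Fancg-/- replicates 1 and 3 each hold RNA of 1 Fancg-/- mouse is in doubt, and no label settles it. Every comparison with Fancg-/- and the interaction rest on these arrays. In comparisons of the double knockout or of Fancg-/- with wild type or Fancc-/-, and in the interaction, the effect of genotype and that of sex cannot be told apart. The double knockout also differed in sex marks from the arrays labelled Fancg-/- replicates 1 and 3, so that comparison is not free of sex either. The marrow was marked by its lineages: 11 of 11 measured erythroid, 8 of 8 late neutrophil and 11 of 11 B-lineage markers passed the filter on dim genes.

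**Figure D1:**
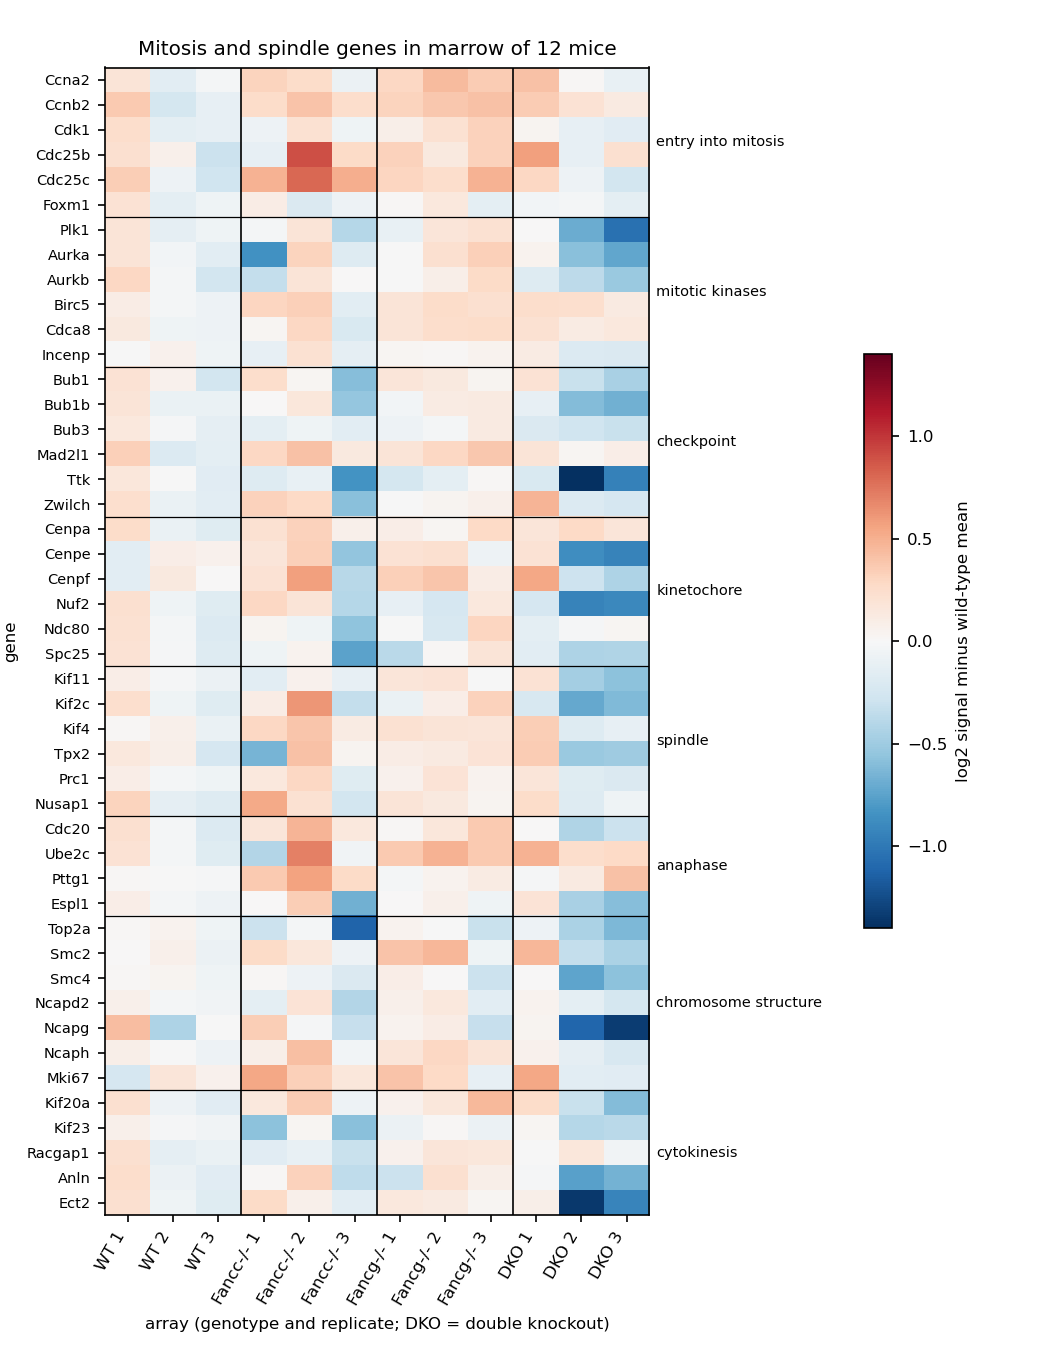
Log2 signal minus the wild-type mean for each of the 46 genes (rows, grouped by role) on each of the 12 arrays (columns). Deep blue cells are most frequent on double-knockout replicates 2 and 3 and Fancc-/- replicate 3, where 24, 29 and 20 of the 46 genes lie over 0.2 below the wild-type mean; on double-knockout replicate 1 there are 4.

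In Fancc-/- marrow the median change of the 46 genes was 0.01 on the log2 scale, against -0.01 over all 11908 genes. Of the 46 values 25 were above 0 and 21 below, where 48.4% of all genes were above 0. The Fancc-/- arrays lay on both sides of wild type, with medians of 0.09, 0.27 and -0.16 on replicates 1, 2 and 3. The median change was -0.09 without replicate 2, 0.17 without replicate 3, 0.12 without wild-type replicate 1 and 0.15 with array weights. None of the 46 passed limma's test at an adjusted p below 0.05 (smallest adjusted p = 0.0681), where 4.53% of all genes did. At an unadjusted p below 0.05 there were 3 of 46 (6.52%), against 19.8% of all genes. For 45 of the 46 the 95% interval of the change lay within 2-fold either way.

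Securin, encoded by Pttg1, restrains the protease that parts sister chromatids. Pttg1 read 11.37, 11.36 and 11.34 in wild type and 11.72, 11.92 and 11.63 in Fancc-/-. Every Fancc-/- array was above every wild-type array, and the difference was 0.40 ± 0.11 (SE, limma adjusted p = 0.0681). Cdc25c, a phosphatase that activates Cdk1, read 6.69, 6.28 and 6.07 in wild type and 6.83, 7.15 and 6.86 in Fancc-/-. These groups did not overlap either, with a difference of 0.60 ± 0.18 (adjusted p = 0.0884), the largest positive value of the set. The motor Kif4 was the other gene of the 3 whose Fancc-/- arrays were all higher (8.06 to 8.34 against 7.86 to 8.02); over all genes 11.1% were all higher. In 0 of 46 were the Fancc-/- arrays all lower, against 13.1% of all genes.

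Calls in this comparison depended on the setting. Pttg1 (adjusted p = 0.0458) and Cdc25c (0.0416) passed after a further quantile normalization. Without wild-type replicate 1 Cdc25c and the cyclin Ccnb2 passed, without Fancc-/- replicate 2 Kif23 alone passed, and without Fancc-/- replicate 3 Pttg1 alone passed. Over all tested genes 618 passed after that normalization and 340 without wild-type replicate 1. Without Fancc-/- replicate 2 there were 644 over all tested genes, and without Fancc-/- replicate 3 there were 563. Kif23, the central spindle motor needed for cytokinesis, read 9.05, 9.65 and 9.04 in Fancc-/- and 9.70, 9.60 and 9.57 in wild type. Replicates 1 and 3 were below wild type and replicate 2 was within its range, and the difference was -0.38 ± 0.17 (adjusted p = 0.244). The largest negative value was that of Top2a, the topoisomerase that disentangles sister chromatids. It read 10.68, 10.95 and 9.86 in Fancc-/- and 10.92 to 11.03 in wild type, a difference of -0.48, with replicate 3 the farthest below. A dimmer Top2a probe set gave 0.55, so the direction depends on the probe set.

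The Fancc-/- arrays spread more widely in these genes than the wild-type arrays did, a difference that was not tested. The median SD of the 46 genes was 0.26 among Fancc-/- arrays and 0.18 among wild-type arrays, against 0.20 and 0.14 over all tested genes. Among double-knockout arrays it was 0.27 against 0.16, and among Fancg-/- arrays 0.11 against 0.14. On Fancc-/- replicate 2, 27 of the 46 genes lay above the wild-type range and 2 below it. On replicate 3, 4 lay above and 26 below, and on replicate 1, 15 lay above and 12 below. Over all genes the shares above the range were 30.9%, 35% and 28.5% on replicates 2, 3 and 1, and the shares below it 28.2%, 37% and 37.2%. Replicate 3 stood apart over all genes too, as the lowest of the 12 arrays for 18.2% of them and the highest for 14.8%. Against the wild-type mean, its median was -0.95 for monocyte markers, -1.06 for T/NK markers and -3.11 for basophil/mast markers. Replicate 2 had the highest 3′ minus 5′ log2 signal of the Gapdh (0.25) and Actb (0.50) control probe sets, a measure of RNA integrity. The part of these in the mitotic values was not tested. Of the 12 genes below the wild-type range on replicate 1, 9 were below it on replicate 3 as well, Kif23 and Ttk among them. On replicate 1 the low values included those of Aurka, the kinase of the spindle poles (8.16, against 9.32 on replicate 2), its activator Tpx2 (8.22 against 9.29) and Ube2c, an enzyme that loads ubiquitin in anaphase (10.93 against 12.05). On replicate 3 they included those of the checkpoint kinase Ttk (7.34, against 7.99 and 8.07), the kinetochore protein Spc25 (8.79, against 9.47 and 9.58) and separase, encoded by Espl1 (7.24, against 7.92 and 8.26). Mki67, which coats mitotic chromosomes and marks dividing cells, read 12.45, 12.25 and 12.07 in Fancc-/- and 11.68, 12.08 and 11.97 in wild type. The difference was 0.35 with overlapping groups.

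**Figure D2:**
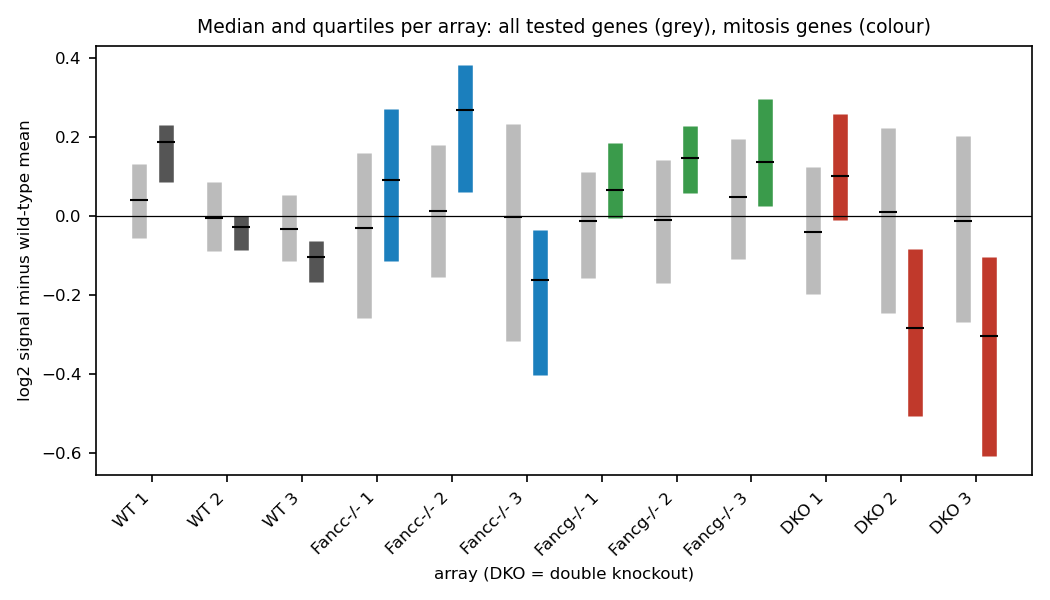
Median (black bar) and quartiles (thick line) of log2 signal minus the wild-type mean on each array, for all tested genes (grey) and for the 46 mitosis genes (colour by genotype). The set's median runs from -0.31 on double-knockout replicate 3 to 0.27 on Fancc-/- replicate 2, while the median of all genes stays between -0.04 and 0.05.

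On the chosen probe sets the arrays labelled Fancg-/- gave values slightly above wild type for most of the set. The median change was 0.12, against 0.01 over all genes. It was 0.05 without wild-type replicate 3 and 0.20 without wild-type replicate 1. Of the 46 values 39 were above 0, against 52.3% of all genes. On 43 other probe sets of 28 of these genes the median was 0.03, and 22 had the sign of the chosen probe set. The rise thus depends on the probe set. None passed limma's test (smallest adjusted p = 0.608), where 0.0504% of all genes did. At an unadjusted p below 0.05 there were 2 of 46 (4.35%), against 7% of all genes, and every one of the 46 intervals lay within 2-fold. In 6 of 46 the 3 arrays were all above wild type, against 8.67% of all genes: Ccna2, Birc5, Cdca8, Kif4, Ube2c and Ncaph. In 0 of 46 were they all below it, against 8.61% of all genes.

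Ccnb2, a B-type cyclin that binds Cdk1, read 10.49, 10.55 and 10.59 in Fancg-/- and 10.54, 9.93 and 10.06 in wild type. Wild-type replicate 1 lay among the Fancg-/- arrays, and the difference was 0.37 ± 0.14 (SE, limma adjusted p = 0.608). Ccna2, the cyclin of S phase and of entry into mitosis, read 10.90, 11.05 and 10.97 in Fancg-/- and 10.79, 10.47 and 10.58 in wild type. These groups did not overlap, with a difference of 0.36 ± 0.15 (adjusted p = 0.647). Mad2l1, the checkpoint protein that inhibits Cdc20, read 10.47, 10.58 and 10.66 against 10.62, 10.10 and 10.15 in wild type, a difference of 0.28 (adjusted p = 0.745) with overlapping groups. Borealin of the chromosomal passenger complex, encoded by Cdca8, read 11.13, 11.20 and 11.21 against 11.09, 10.89 and 10.87 (0.23 ± 0.12, adjusted p = 0.764). Ube2c had the largest value, 0.41, with 11.71, 11.83 and 11.71 against 11.54, 11.31 and 11.17. Leaving out the arrays labelled Fancg-/- replicates 1 and 3, an alternative chosen after seeing the data, left replicate 2 alone, with the spread taken from the other groups. The median was then 0.15, and a count of calls from 1 array says little.

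In the double knockout most of the set lay below wild type, unevenly over the roles and the arrays. The median change of the 46 genes was -0.11, against -0.01 over all genes. Of the 46 values 32 were below 0 and 14 above, where 47.8% of all genes were above 0. None passed limma's test over the 3 double-knockout arrays (smallest adjusted p = 0.0818), where 5.28% of all genes did. At an unadjusted p below 0.05 there were 9 of 46 (19.6%), all lower, against 24.2% of all genes in either direction and 13.7% lower. In 6 of 46 the 3 arrays were all below wild type, against 16.9% of all genes, and in 2 (Birc5 and Ube2c) all above, against 12.5%. For 8 genes the 95% interval reached 2-fold lower or beyond, and for 2 of them, Aurka and Cenpe, it also held 0.

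**Figure D3:**
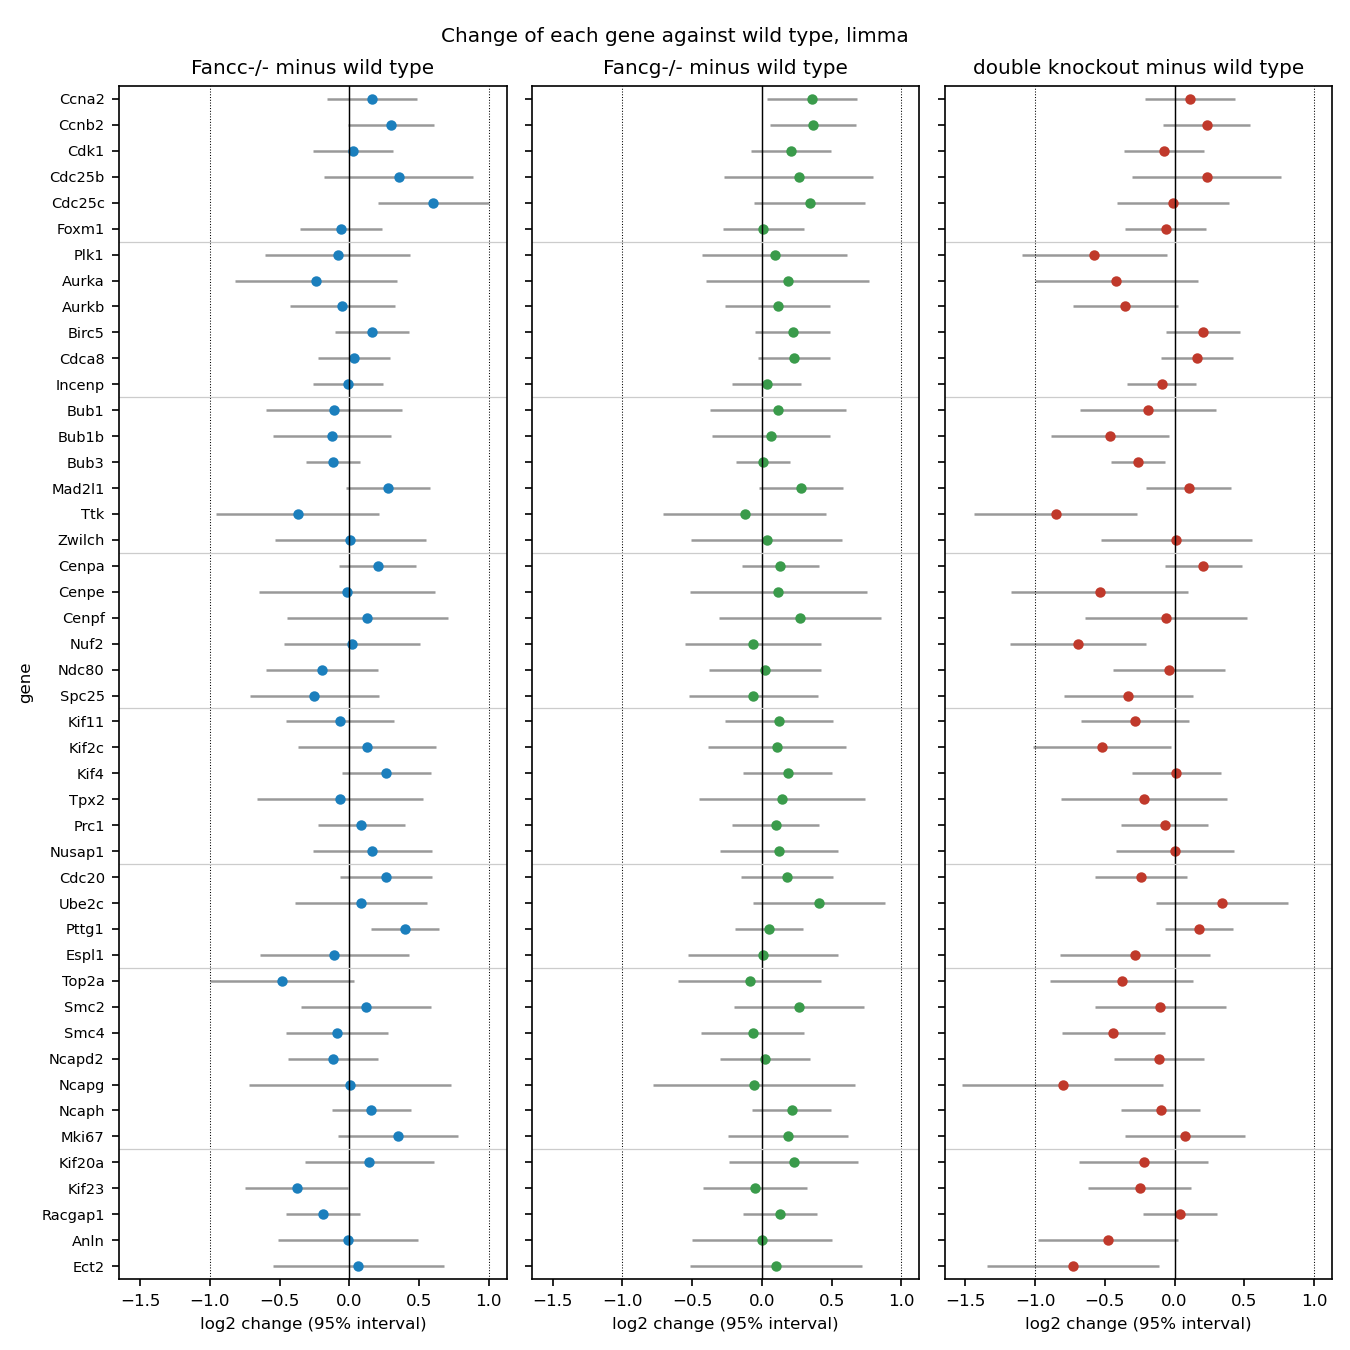
Change of each of the 46 genes against wild type (points; lines are 95% intervals from limma) in the 3 knockout groups, on the log2 scale, with dotted lines at 2-fold. In the double knockout Ttk (-0.85), Ncapg (-0.80) and Ect2 (-0.73) lie farthest left, and Ube2c (0.34) farthest right.

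Replicate 1 of the double knockout stood apart from replicates 2 and 3. The set's median against the wild-type mean was 0.10, -0.28 and -0.31 on replicates 1, 2 and 3. On replicate 1, 7 of the 46 genes lay below the wild-type range and 18 above it. On replicates 2 and 3, 31 each lay below it, and 4 and 5 above. Over all genes the shares below the range were 35.7%, 34.1% and 36.6% on replicates 1, 2 and 3, and the shares above it 24%, 34.8% and 32.2%. Replicate 3 was the lowest of the 12 arrays for 14 of the 46 genes and replicate 2 for 8, where each was the lowest for 10.3% and 9.65% of all genes. Replicate 1 was the lowest for 0 of the 46 and for 8.88% of all genes. All 3 arrays had the same sex marks (Xist 7.39, 7.06 and 5.99, Eif2s3y 9.35, 8.85 and 8.81) and low Fancg. The 3′ minus 5′ log2 signal was -0.07, -0.07 and 0.03 on them for Gapdh and 0.26, 0.29 and 0.42 for Actb, where the other arrays had -0.12 to 0.25 and 0.21 to 0.50. Its part in the mitotic values was not tested.

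The kinases and the checkpoint gave these double-knockout values. Plk1, the Polo kinase needed at each stage of mitosis, read 9.10, 8.40 and 8.05 in the double knockout and 9.28, 8.97 and 9.04 in wild type. Replicate 1 was within the wild-type range and the other 2 arrays were the lowest of all 12, with a difference of -0.58 ± 0.24 (SE, limma adjusted p = 0.165). Ttk, the kinase that starts checkpoint signalling at unattached kinetochores, read 7.95, 6.78 and 7.22 against 8.33, 8.17 and 8.01. All 3 were below wild type, replicate 1 by little (-0.85 ± 0.27, adjusted p = 0.0818). Bub3, which docks the checkpoint kinases at kinetochores, read 11.23, 11.16 and 11.12 against 11.57, 11.41 and 11.31. Every double-knockout array was below each of the other 9 arrays, and the difference from wild type was -0.26 (adjusted p = 0.103). Aurkb, the kinase of the chromosomal passenger complex, was at -0.35, and its partners Birc5, Cdca8 and Incenp were at 0.20, 0.16 and -0.09, with no test between them.

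Kinetochore and chromosome genes ran from -0.80 (Ncapg) to 0.21 (Cenpa). Nuf2, of the complex that binds spindle microtubules, read 9.11, 8.40 and 8.44 against 9.57, 9.28 and 9.18 in wild type (-0.69 ± 0.22, SE, limma adjusted p = 0.0860). All 3 arrays were below wild type. Ndc80, its direct partner, read 7.55, 7.67 and 7.71 against 7.91, 7.66 and 7.50, a difference of -0.04. Cenpe, the kinetochore motor, read 8.72, 7.65 and 7.59 against 8.38, 8.62 and 8.58, with replicate 1 above wild type and the others well below. Cenpa, the histone that marks centromeres, read 10.39, 10.50 and 10.39 against 10.48, 10.13 and 10.06 (0.21). Ncapg, a condensin subunit, read 8.33, 7.19 and 6.96 against 8.73, 7.87 and 8.29, with replicate 1 within the wild-type range (-0.80 ± 0.33, adjusted p = 0.165). The condensin subunits Ncapd2 and Ncaph were at -0.11 and -0.10, and Smc4 at -0.44.

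Among the spindle and cytokinesis genes, Ect2, the exchange factor that starts the cleavage furrow, read 8.52, 7.09 and 7.51 in the double knockout and 8.66, 8.37 and 8.26 in wild type. Replicates 2 and 3 were the lowest of the 12 arrays and replicate 1 lay within the wild-type range (-0.73 ± 0.28, SE, limma adjusted p = 0.143). Its partner Racgap1 was at 0.04 and Kif23 at -0.25. Kif2c, which depolymerises microtubules at kinetochores, was at -0.52, and Nusap1, which bundles spindle microtubules, at 0.00 (10.52, 10.08 and 10.20 against 10.57, 10.14 and 10.08). The genes of entry into mitosis stayed close to wild type, with a role median of 0.05 and values from -0.08 (Cdk1) to 0.23 (Cdc25b). Foxm1, the transcription factor that activates many G2 and M genes, was at -0.07. Mki67 read 12.46, 11.76 and 11.75 against 11.68, 12.08 and 11.97, a difference of 0.08 with replicate 1 above every wild-type array.

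Leaving out double-knockout replicate 1 changed the calls. In limma's fit of the other 11 arrays, 10 of the 46 genes fell against wild type (21.7%) and 0 rose, where 8.94% of all genes fell. The set's median was then -0.33, against 0.00 over all genes. The 10 were Ect2 (-1.13 ± 0.18, SE, adjusted p = 0.00232), Ttk (-1.17 ± 0.22, 0.00627), Smc4 (-0.66 ± 0.13, 0.00637), Ncapg (-1.22 ± 0.26, 0.0103), Plk1 (-0.87 ± 0.19, 0.0123), Nuf2 (-0.92), Kif11 (-0.52), Cenpe (-0.90), the checkpoint kinase Bub1b (-0.64) and the contractile ring protein Anln (-0.71). They came from 6 of the 8 roles, with none from entry into mitosis or from anaphase. These calls rest on 2 arrays against 3, and no label sets replicate 1 apart. Replicate 1 drew interest only after these genes were seen to be higher on it, so leaving it out favours lower values of this set. The shares without it, here and in the comparisons below, are no independent support for a fall. With array weights, under which replicate 1 counted 0.34 and replicates 2 and 3 counted 1.58 and 1.81, 14 of 46 fell (30.4%), against 15.7% of all genes. The weights were estimated from these same arrays, so the shares with them, here and below, are no independent support either.

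**Figure D4:**
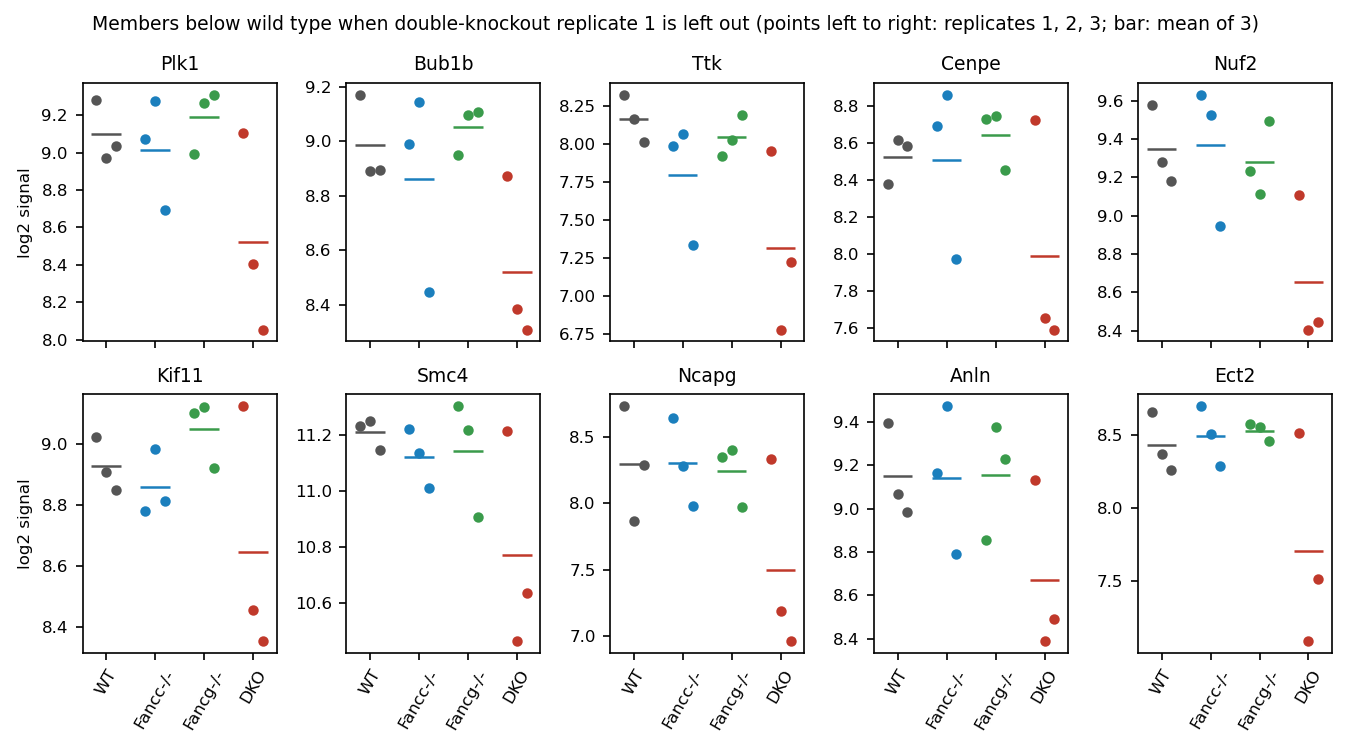
Log2 signal on each array (points, replicates 1 to 3 from left to right; bars are means of 3) of the 10 genes that fell against wild type when double-knockout replicate 1 was left out. In each panel double-knockout replicate 1 lies above replicates 2 and 3. The genes were picked for low values on replicates 2 and 3, so this order follows in part from the choice.

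Other probe sets of the same genes gave a second reading in the same RNA. There were 43 further probe sets above the filter, for 28 of the 46 genes, and 30 of the 43 had the sign of the chosen probe set in the double knockout against wild type. Cenpe (-0.98 on the other probe set), Bub1b (-0.65), Ncapg (-0.59) and Smc4 (-0.35 and -0.89) were lower on these as well. The other probe sets of Kif11 disagreed (-0.63 and 0.01). In 5 of the 43 the difference from the chosen probe set was over 0.5, the largest for Top2a, at 0.45 on the other probe set against -0.38. For Fancc-/- and Fancg-/- against wild type, 24 and 22 of the 43 had the sign of the chosen probe set. Their medians were -0.06 and 0.03, and the median for the double knockout was -0.12. For the double knockout against Fancg-/- 37 of the 43 had that sign, with a median of -0.16.

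Between the knockouts, the largest shift of the set was that of the double knockout against the arrays labelled Fancg-/-. Here 44 of the 46 values were below 0 and 2 above, where 43.6% of all genes were above 0. The set's median was -0.29, against -0.03 over all genes. None passed limma's test (smallest adjusted p = 0.226), and neither did any gene of the 11908 (0%). At an unadjusted p below 0.05 there were 15 of 46 (32.6%), all lower, against 14.4% of all genes in either direction and 7.75% lower. In 8 of 46 the arrays did not overlap, all lower, against 10.5% of all genes: Cdk1, Aurkb, Bub1b, Bub3, Nuf2, Kif2c, Cdc20 and Ncaph. In 0 of 46 were they all higher, against 8.87%. The 2 values above 0 were those of Pttg1 (0.12) and Cenpa (0.07). Without double-knockout replicate 1, 11 of 46 fell (23.9%), against 4.22% of all genes. With array weights 23 of 46 fell, against 9.65% of all genes. These weights counted the arrays labelled Fancg-/- replicates 1, 2 and 3 at 2.33, 1.48 and 0.72. The largest of them is thus on an array whose label is in doubt. Against Fancg-/- replicate 2 alone the median was -0.33.

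Against Fancc-/-, the median of the double knockout was -0.18. None of the 46 passed limma's test, where 0.0084% of all genes did, and 6 were lower at an unadjusted p below 0.05 (13%), against 9.56% of all genes. The arrays did not overlap in 3 genes that were lower (Cdc25c, Bub3 and Cdc20; 9.1% of all genes) and in 1 that was higher (Racgap1; 8.68%). Cdc25c read 6.64, 6.27 and 6.09 in the double knockout, below every Fancc-/- array (6.83, 7.15 and 6.86), a difference of -0.62 ± 0.18 (SE, limma adjusted p = 0.123). Cdc20, the activator of the anaphase ligase, read 10.89, 10.47 and 10.59 against 11.06, 11.36 and 11.04 in Fancc-/- (-0.50, adjusted p = 0.123). Without double-knockout replicate 1, 10 of 46 fell (21.7%), against 5.23% of all genes. Without Fancc-/- replicate 3 Kif2c and Nuf2 passed, where 327 passed over all tested genes. With array weights 15 fell, against 7.31% of all genes.

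Between the single knockouts, the median of Fancg-/- minus Fancc-/- was 0.10. It was 0.13 with replicate 2 as the lone Fancg-/- array. Without Fancc-/- replicate 3 it turned to -0.03, and without Fancc-/- replicate 2 it was 0.19. None of the 46 passed limma's test (smallest adjusted p = 0.389), where 0.109% of all genes did. At an unadjusted p below 0.05 there were 2, Pttg1 at -0.35 and Racgap1, which organises the central spindle, at 0.32, against 9.04% of all genes. The arrays were all lower in Fancg-/- for Cdc25c and Pttg1 (6.21% of all genes) and all higher for Racgap1 (7.16%).

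An interaction term took from the change in the double knockout those of Fancc-/- and of Fancg-/-. Its median over the 46 genes was -0.35, against -0.02 over all genes. Of the 46 values 42 were below 0 and 4 above, where 47.9% of all genes were above 0. With replicate 2 as the lone Fancg-/- array the median was -0.35 too. It uses the same wild-type arrays as the comparisons above. None of the 46 passed limma's test (smallest adjusted p = 0.146; 0.0084% of all genes passed), and 7 were below 0.05 unadjusted, all negative (15.2%, against 7.42% of all genes negative). Cdc25c (-0.96 ± 0.26, SE) and Cdc20 (-0.68 ± 0.21) had the smallest p. Without double-knockout replicate 1, Cdc25c, Cdc20 and Ect2 passed, 3 of 46 (6.52%), against 2.19% of all genes negative. With array weights 11 passed, against 4.06%.

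Other genes of cell division, listed by role, were read in the same fits. Of 61 other tested mitotic genes, Cenpk, a centromere protein, rose in Fancc-/- (0.67 ± 0.17, SE, limma adjusted p = 0.0463), and none fell. In the double knockout Pimreg, a regulator of the metaphase-to-anaphase step (-1.46 ± 0.30, adjusted p = 0.0243), and Cep55, needed for abscission (-0.73 ± 0.17, adjusted p = 0.0374), fell, and none rose. Against wild type the list's median was 0.04 in Fancc-/-, 0.10 for the Fancg-/- arrays and -0.05 in the double knockout. None of 15 genes of the anaphase-promoting complex and its partners, and none of 10 cohesin genes, passed in those comparisons, with medians between -0.08 and 0.01.

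The replication genes of S phase had medians of 0.17, 0.16 and 0.16 against wild type in Fancc-/-, for Fancg-/- and in the double knockout. Of 19 tested, Ccne1, the cyclin of entry into S phase (0.78 ± 0.14, SE, limma adjusted p = 0.0160), and Chaf1b, a histone chaperone of replication (0.59 ± 0.14, adjusted p = 0.0364), rose in the double knockout, and 0 fell. Their list's median was 0.26, 0.16 and 0.17 on double-knockout replicates 1, 2 and 3, where the mitotic set was at 0.10, -0.28 and -0.31. The difference between the lists was not tested. Ccne1 rose in Fancc-/- too (0.57 ± 0.14, adjusted p = 0.0349). Of 12 cell cycle activators, E2f2, an activator of S-phase genes, rose in Fancc-/- (0.76 ± 0.12) and in the double knockout (0.65 ± 0.12), and Myc fell in the double knockout (-0.76 ± 0.20, adjusted p = 0.0473). Of 17 inhibitors and repressors of the cycle, 0 passed against wild type in any group.

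**Figure D5:**
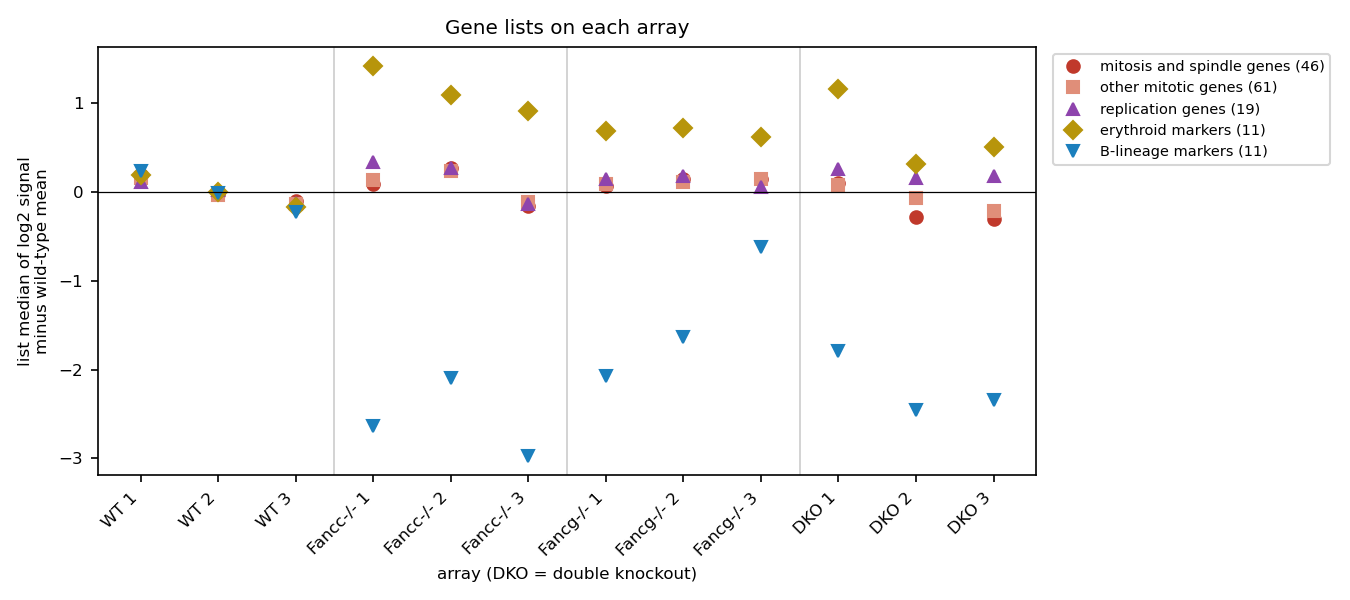
Median over each gene list of log2 signal minus the wild-type mean, on each array; the number of tested genes is in the legend. On double-knockout replicates 2 and 3 the mitosis set lies at -0.28 and -0.31 and the replication genes at 0.16 and 0.17, while B-lineage markers are low in all knockout groups and erythroid markers high.

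Markers of dividing lineages moved with genotype beside these values. Of 11 erythroid markers, 8 rose in Fancc-/- (median 1.19) and 2 rose in the double knockout (median 0.57), while 0 passed for Fancg-/- (median 0.68), and 0 fell. Their summed log2 signal was 107 to 112 on wild-type arrays and 120 to 125 on Fancc-/- arrays. Fancg-/- arrays had sums of 115 to 117, and double-knockout replicates 1, 2 and 3 had 122, 113 and 115. Double-knockout replicate 1, with the higher mitotic values, also had the highest erythroid sum of its group. The array of highest erythroid sum had the highest mitotic median in wild type (replicate 1) and Fancg-/- (replicate 2) too. In Fancc-/- the highest sum was on replicate 1 and the highest mitotic median on replicate 2. The full order of a group's arrays was the same for both in wild type only. Fancg-/- replicates 1 and 2 had nearly the same sum (117.0 and 117.1) and mitotic medians of 0.065 and 0.147, the lowest and highest of their group. Double-knockout replicate 3 had a higher sum than replicate 2 but a lower mitotic median (-0.31 against -0.28). Of 11 B-lineage markers, 9 fell in Fancc-/- and 9 in the double knockout, and 0 passed for Fancg-/-. Their summed log2 signal was 91.4 to 97.0 on wild-type arrays and 64.4 to 67.5 on Fancc-/- arrays. Fancg-/- arrays had 69.3 to 87.9, and double-knockout arrays 68.5 to 70.1. Of 9 stem and progenitor markers, Sox4 (-1.97), Myb (-1.26) and Erg (-1.17) fell in the double knockout. In Fancc-/- 1 of the 9 fell, and 0 passed for Fancg-/-. The list's median against wild type was -0.64 in the double knockout, -0.28 in Fancc-/- and -0.48 for Fancg-/-. In the double knockout 3 of 6 early neutrophil granule markers fell too, Ms4a3 (-0.61), Elane (-0.33) and Mpo (-0.31). The part of these lineages in the mitotic values was not tested.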

How the data were processed

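Affymetrix mouse arrays were run on 12 marrow RNA samples, with 2 µg of input RNA on 11 arrays and 0.91 µg on Fancg-/- replicate 3. The deposited log2 values are signals per probe set, for which the submitters' processing notes name RMA and Partek without versions. Of 45101 probe sets, 34945 had 1 gene symbol, 932 had several and 9160 had none, beside 64 controls. Symbols came from the platform annotation, and 34741 matched the reference gene table by Entrez ID. Genes were tested when above the array median on at least 3 arrays (11908 genes), in 1 model over the 12 arrays with limma 3.58.1 in R 4.3.3, with moderated variances and a variance trend. Each test was 2-sided, Benjamini-Hochberg adjustment ran over the 11908 genes, and a gene was called at an adjusted p below 0.05. P-values measure the spread between these samples, taken as 1 mouse each, which is in doubt for the arrays labelled Fancg-/- replicates 1 and 3. Genes were named by a rule: the 3 smallest p against wild type in each group, the gene of highest mean in each of the 8 roles, and called genes. Array values of Top2a, Plk1, Ndc80, Cenpe, Ncapg, Ect2 and Cdc20, of single Fancc-/- arrays for other genes, and the interest in double-knockout replicate 1 were chosen after their values were seen. The members, lists and alternatives were chosen with earlier results of these data known. The fit was run on simulated data with noise drawn separately for each gene and array. Such data hold no shifts shared by the genes of an array, so the run says nothing about those. Precision is limited by 3 arrays a group. Correlations of deviations between same-numbered arrays were all over 0.1 for wild type and Fancc-/- (0.159, 0.146 and 0.158), so the numbers may pair these arrays. The correlations are low, no label names a pairing, and the main fits used none. In the other comparisons not every pair was over 0.1 (range -0.37 to 0.20), and the numbers were taken as names.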

Additional observations from a re-analysis of the deposited data

How the results depend on the processing

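Counts of called mitosis genes were 0 in all 7 comparisons. They stayed 0 with no filter or a stricter one, with the mean of a gene's probe sets or only unsuffixed ones, with median centring, with no variance trend or a robust one, with Xist as a covariate, and, for the 6 comparisons of groups, in fits of only the groups compared. For the double knockout against wild type or Fancc-/- the 0 with Xist as a covariate says little, since Xist itself separated these groups. Quantile normalization gave 2 in Fancc-/- against wild type. Array weights gave 2 there, 14 in the double knockout against wild type, 15 against Fancc-/- (median -0.37), 23 against Fancg-/- and 11 in the interaction (median -0.55). Leaving out 1 array gave 0 to 2 in Fancc-/- against wild type, 0 to 10 in the double knockout against wild type (medians -0.327 to -0.0426) and against Fancc-/-, 0 to 11 against Fancg-/-, 0 to 3 in the interaction, and 0 elsewhere. The replicate block linked same-numbered arrays of all groups, although only those of wild type and Fancc-/- may be paired. With it the counts were 0 and the medians the same (0.01 in Fancc-/- against wild type and -0.11 in the double knockout). The block changed no call of a mitosis gene, and calls over all genes went from 540 to 528 and from 629 to 463 there. Of 1869 changes of named genes over all alternatives, 30 newly passed the threshold and 17, none of them called, changed sign. Calls over all genes moved more. Against wild type they ran from 175 to 755 in Fancc-/- (540 as reported) and 0 to 277 for Fancg-/- (6). Double-knockout calls against wild type ran from 0, with Xist as a covariate, to 3382 (629). In the other comparisons they ran from 0 to 1727 (1) for the double knockout against Fancc-/-, 0 to 2250 (0) against Fancg-/-, 0 to 51 (13) for Fancg-/- against Fancc-/- and 0 to 1035 (1) for the interaction. The cause was not tested.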
